A study of Mus musculus with 13 samples.

Results

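The 33 genes described here are interferon-stimulated genes, genes whose transcription rises when a cell senses interferon. They were chosen by symbol from that known class, with earlier results of these data known. All 33 were among the 26720 genes of the count table. RNA was measured in regulatory T (Treg) cells, CD4+ T cells that express the transcription factor Foxp3 and restrain immune responses. The cells were sorted from spleen as CD4+YFP+ cells of mice aged around 4 to 5 weeks, and their RNA was turned into complementary DNA with a low-input kit (SMART-Seq v4 Ultra Low Input). The deleted group held 6 libraries (replicates 1, 2, 3, 4, 5 and 7) of the genotype Foxp3YFPCre/+ Stk3∆/∆ Stk4∆/∆, which the labels mark Het. The control group held 7 libraries (replicates 1 to 7) of the genotype Foxp3YFPCre, marked WT. Both groups carry the Cre recombinase fused to a yellow fluorescent reporter and driven by Foxp3, so both express Cre in Treg cells. In the deleted group it removes Stk3 and Stk4, which encode the Hippo pathway kinases MST2 and MST1. Foxp3 is X-linked, the Cre allele is heterozygous in the deleted group, and its zygosity in the control group is not given. A difference in zygosity between the groups, if there is one, cannot be told apart from the deletion. The labels tie no library to a mouse and state no sex. A heterozygous X-linked allele implies female mice in the deleted group, while the sex of the control mice is not given. The p-values measure the spread between these libraries.

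Type I interferons bind the receptor IFNAR1/IFNAR2, and the kinases JAK1 and TYK2 then act on STAT transcription factors. STAT2 and IRF9 are subunits of the complex ISGF3, which binds interferon-stimulated response elements (ISRE). Interferon gamma acts through IFNGR1/IFNGR2, JAK1 and JAK2, and its target genes carry gamma-activated sites (GAS). Treg cells respond to both kinds of interferon and keep a basal level of many of these genes.

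Treg cells of the deleted group held less RNA of 15 of the 33 interferon-stimulated genes, and of none more at the same threshold. The interferon-inducible GTPases Igtp, Irgm1, Ifi47, Gbp2 and Gbp7 were all lower, as were the transcription factors Irf1 and Irf7, the exonuclease gene Isg20 and the surface protein gene Ly6a. The genes of the IFIT proteins, viperin and most oligoadenylate synthetases did not pass the test. On counts simulated at this depth the test recovered 40 of 100 changes of 2-fold. Not passing therefore does not show that a gene was unchanged. The size of the difference ran from a log2 fold change (deleted over control) of −1.82 for Ly6a to 0.45 for Ifi44. All 33 genes passed the low-count filter. Of them, 15 (45.5%) were lower in the deleted group at an adjusted p under 0.05 by edgeR's quasi-likelihood test with Benjamini-Hochberg adjustment over 24068 genes, and 18 did not pass. Over all genes tested, 2050 (8.52%) were lower and 400 (1.66%) higher. The number of interferon-stimulated genes called higher by edgeR was 0, also at an unadjusted p under 0.05. DESeq2 and limma-voom called 0 higher after adjustment. At an unadjusted p under 0.05, DESeq2 had 0 higher and limma-voom 1. The log2 fold change was negative for 30 of the 33 (90.9%), against 45.7% of all genes tested, and its median was −0.83, against 0.06 over all genes tested. Groups did not overlap, with every deleted library below every control library, for 3 of the 33 genes (9.09%), which were Isg20, Gbp2 and Oasl1. The same was found for 346 of all 24068 genes (1.44%). Because these are bulk samples of sorted cells, fewer cells of a type and less RNA per cell cannot be told apart. In the authors' deposited table, 13 of the 33 genes were lower and 0 higher at a mean false discovery rate under 0.05. Isg15 and Zbp1, at mean rates of 0.0592 and 0.0518 in the authors' deposited table, were the members called here and not there. A second rate in that table, labelled FDR.Max, was 0.0273 for Isg15 and 0.0306 for Zbp1.

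**Figure D1:**
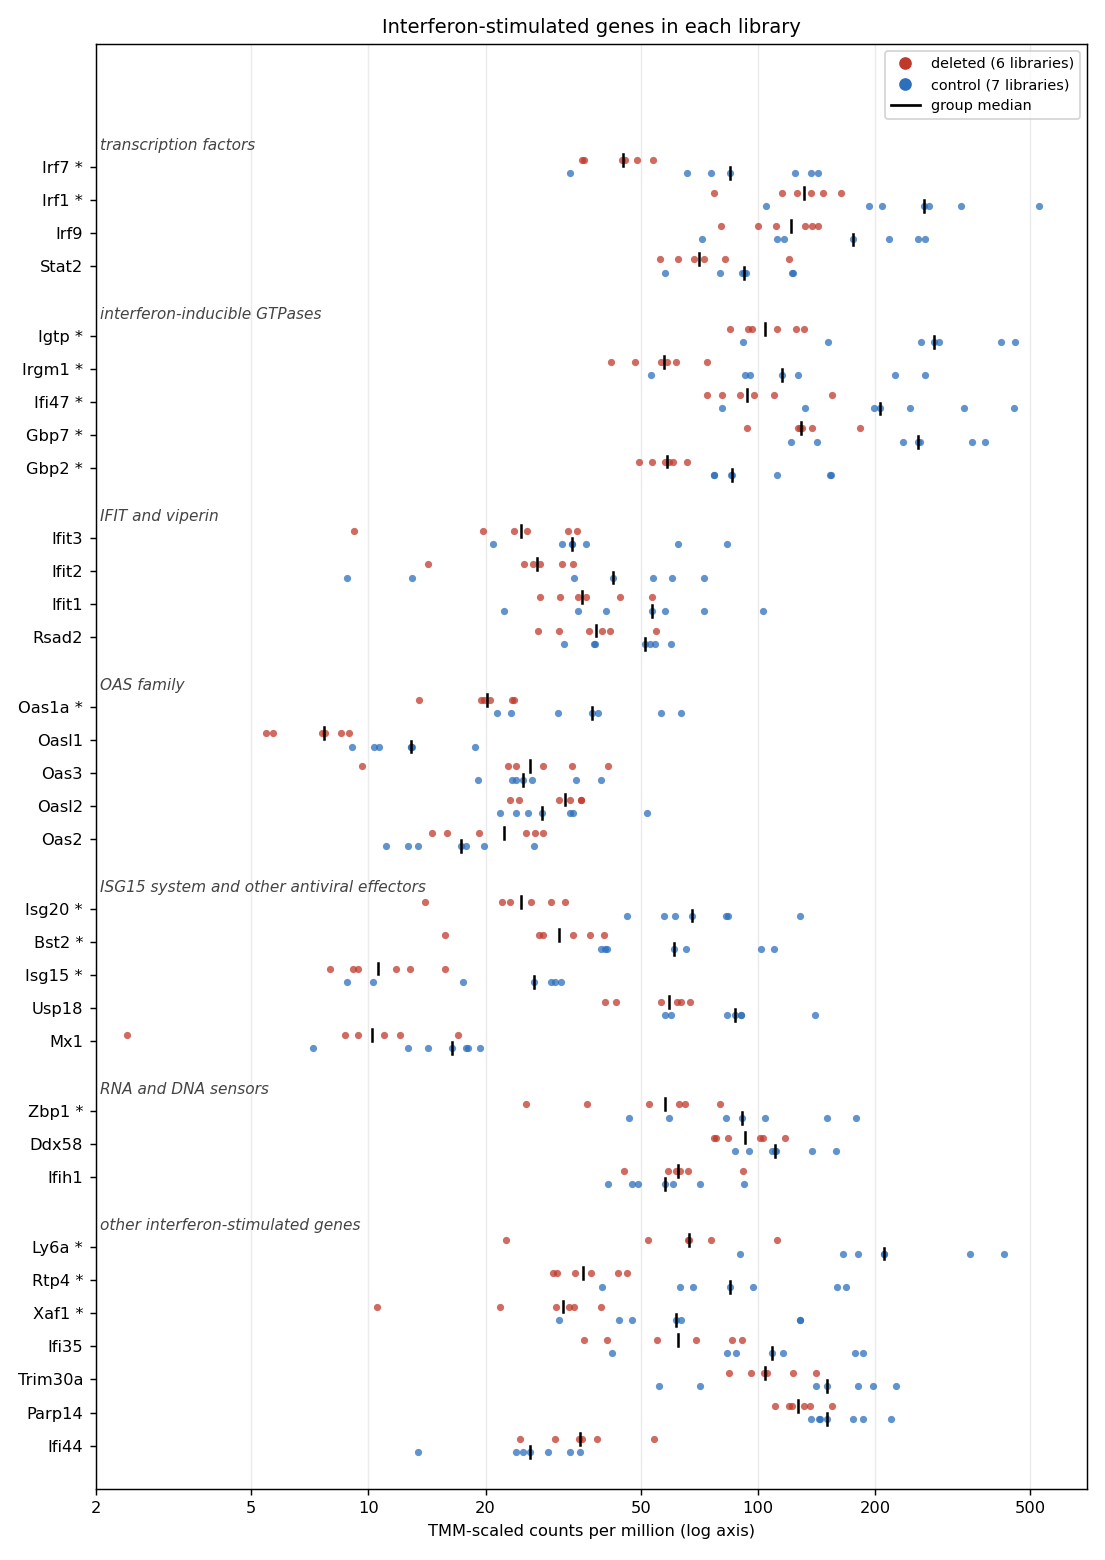
Level of each interferon-stimulated gene in every library, in TMM-scaled counts per 1e6 counts on a log axis, with deleted libraries above control libraries for each gene, black bars for group medians and an asterisk for an adjusted p under 0.05. Deleted and control points are separate for Isg20, Gbp2 and Oasl1 and overlap for the other genes, and within the control group the points of the GTPases, Irf1 and Ly6a are spread widely.

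The difference has to be read beside the libraries it was measured in. Total counts were 2671660 to 4569655 in deleted libraries and 3705511 to 8323919 in control libraries (two-sided exact permutation test, p = 0.00816). Olfactory and vomeronasal receptor genes, 1482 genes that T cells do not use, took 0.761 to 1.89% of counts in deleted libraries and 0.371 to 1.07% in control libraries (two-sided exact permutation test, p = 0.00641). The 33 genes summed to 2049, 1891, 1903, 1944, 1935 and 1473 TMM-scaled counts per 1e6 counts (CPM) in deleted replicates 1, 2, 3, 4, 5 and 7. In control replicates 1 to 7 they summed to 2375, 1733, 3045, 4647, 5321, 3408 and 2957 CPM. Deleted libraries were thus close together, while the control group ran over a wide range that reached below 5 of the 6 deleted libraries at control replicate 2. That library had the highest receptor share of the controls, 1.07%, and was the lowest control for 22 of the 33 genes. Control replicate 5, with the lowest share of all libraries, 0.371%, was the highest control for 20 of them. Deleted replicate 7, with the highest share, 1.89%, was the lowest deleted library for 17. At an equal share of 0.761%, deleted replicate 1 summed to 2049 CPM and control replicate 3 to 3045 CPM. At 1.14 and 1.07%, deleted replicate 4 summed to 1944 CPM and control replicate 2 to 1733 CPM. With the log2 receptor share as a covariate, edgeR called 0 of the 33 genes in either direction (5 lower and 0 higher at an unadjusted p under 0.05), 21 had a negative log2 fold change and the median was −0.11. Over all genes that fit called 56 lower (0.233%) and 54 higher (0.224%). The log2 receptor share correlated with genotype (0.692), and the shares of the groups overlapped in part. In that fit the log2 fold change of Irf1 went from −1.09 ± 0.30 to −0.07 ± 0.24 (SE). That of Isg15 went from −0.98 ± 0.31 to −0.30 ± 0.42. How far receptor share and how far genotype go with these changes was not tested.

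**Figure D2:**
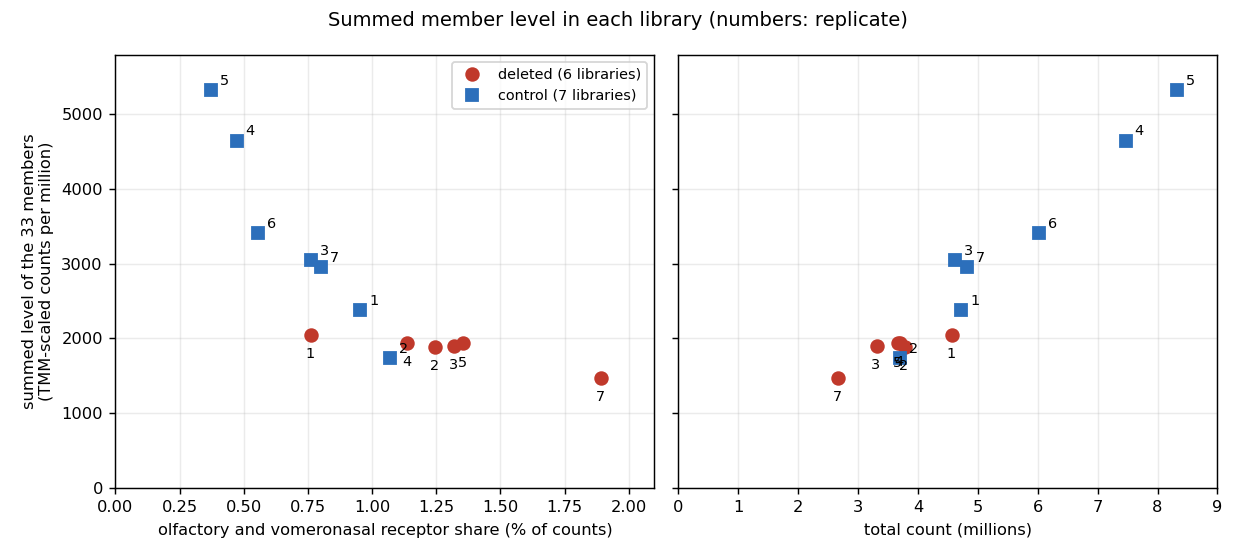
Summed level of the 33 interferon-stimulated genes in each library against the share of counts from olfactory and vomeronasal receptor genes (left) and against the total count (right), with the replicate number beside each point. The 7 control libraries run from 5321 CPM at a share of 0.371% to 1733 CPM at 1.07%, and the 6 deleted libraries lie between 1473 and 2049 CPM.

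The share of genes lower in the deleted group also depended on how high a gene is expressed. For these bands and the 50 CPM limit, the level was the mean CPM before TMM scaling. Among all genes tested it was 0.814% below a mean of 10 CPM, 2.87% from 10 to 20, 9.46% from 20 to 50, 18.6% from 50 to 100, 27.9% from 100 to 200 and 42.4% at 200 CPM or more. The interferon-stimulated genes called lower were 0 of 1, 1 of 3, 4 of 11, 5 of 9 and 5 of 9 in the first 5 of these bands, and none lay in the highest. Between 50 and 100 CPM their median log2 fold change was −0.88, against −0.27 for all genes of that level, and between 100 and 200 CPM it was −0.91 against −0.47. When only the 5153 genes with a mean of at least 50 CPM were scaled and tested, 8 of 18 interferon-stimulated genes were lower and 0 higher (edgeR; 1 higher at an unadjusted p under 0.05). In that fit 717 of all genes (13.9%) were lower and 561 (10.9%) higher. Those 8 were Igtp, Irgm1, Ifi47, Gbp7, Irf1, Irf7, Rtp4 and Ly6a. Isg20 and Xaf1, with means of 51.9 and 51.8 CPM after TMM scaling, fell under the limit before scaling and were not in that fit. The 18 genes had a median log2 fold change of −0.46 in that fit, which moved the median of the genes it tested up by 0.41 on the log2 scale.

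**Figure D3:**
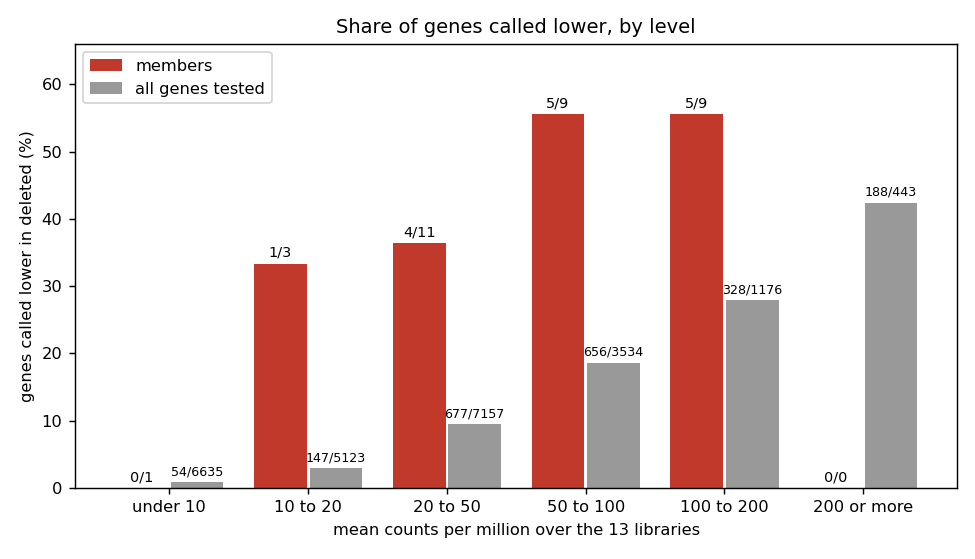
Percent of genes lower in the deleted group by mean level before TMM scaling, for the interferon-stimulated genes and for all genes tested. The number of members lower over the number of members is printed for each band. In every band from 10 to 200 CPM the percentage was larger for the interferon-stimulated genes, on 3 to 11 genes a band.

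The sequence around the start sites of these genes was searched for exact cores of interferon elements. RefSeq promoter windows on GRCm38.p6, from 250 bases before to 50 after each start, were found for 26 of the 33 genes, in 32 windows, and for none of Mx1, Oas2, Usp18, Rtp4, Zbp1, Ly6a and Parp14. The ISRE core GAAANNGAAA, searched on both strands (TTTCNNTTTC on the other), was in 16 of the 32 windows (50%), against 1131 of 32851 windows of all genes (3.44%). The GAS core TTCNNNGAA, the same on both strands, was in 8 of the 32 windows (25%), against 8.3% of all windows. Of the 12 genes with a window that were lower in the deleted group, 7 held the ISRE core and 6 the GAS core. Of the 14 that did not pass the test, 8 held the ISRE core and 2 the GAS core. A match describes letters in a window and is not a measured binding site. A window without a match does not show that a gene lacks the element. Variants of the cores and sequence outside the windows were not searched. The windows below are those of 3 GTPase genes and Isg15, which were lower, and of Ifit1 and Oas3, which did not pass the test although they hold the same core. All are written along the gene's own strand, with ISRE matches in capitals and overlapping matches run together. They are Igtp at chr11:58199306-58199605 (plus strand, first matching base 34 before the start), Irgm1 at chr11:48871371-48871670 (minus, matches 30 and 24 before) and Gbp2 at chr3:142620413-142620712 (plus, 59 before). Isg15 is at chr4:156200769-156201068 (minus, 3 matches from 78 to 66 before), Ifit1 at chr19:34640639-34640938 (plus, 104 and 85 before) and Oas3 at chr5:120777610-120777909 (minus, 75 before).
Igtp: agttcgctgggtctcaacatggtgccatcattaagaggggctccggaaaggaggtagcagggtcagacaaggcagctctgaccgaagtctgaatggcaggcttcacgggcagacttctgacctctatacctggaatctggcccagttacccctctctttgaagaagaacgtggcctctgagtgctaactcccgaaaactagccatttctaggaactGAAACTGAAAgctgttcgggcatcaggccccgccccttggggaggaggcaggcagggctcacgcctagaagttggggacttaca
Irgm1: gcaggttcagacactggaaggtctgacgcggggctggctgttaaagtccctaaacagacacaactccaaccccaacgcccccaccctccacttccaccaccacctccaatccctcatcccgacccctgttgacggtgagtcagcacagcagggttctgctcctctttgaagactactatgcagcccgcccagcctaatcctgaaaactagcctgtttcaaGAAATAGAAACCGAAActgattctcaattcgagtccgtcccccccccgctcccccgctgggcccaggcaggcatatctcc
Gbp2: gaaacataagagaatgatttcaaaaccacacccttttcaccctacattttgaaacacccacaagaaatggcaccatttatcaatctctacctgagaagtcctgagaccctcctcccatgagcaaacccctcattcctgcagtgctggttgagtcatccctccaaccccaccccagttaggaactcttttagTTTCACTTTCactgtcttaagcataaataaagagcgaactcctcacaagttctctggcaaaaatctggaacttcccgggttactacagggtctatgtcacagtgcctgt
Isg15: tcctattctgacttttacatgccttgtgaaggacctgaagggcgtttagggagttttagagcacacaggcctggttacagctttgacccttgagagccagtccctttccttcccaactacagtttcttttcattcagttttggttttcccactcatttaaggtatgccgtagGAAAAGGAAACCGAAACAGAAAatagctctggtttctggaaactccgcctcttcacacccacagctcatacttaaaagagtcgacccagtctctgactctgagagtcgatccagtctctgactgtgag
Ifit1: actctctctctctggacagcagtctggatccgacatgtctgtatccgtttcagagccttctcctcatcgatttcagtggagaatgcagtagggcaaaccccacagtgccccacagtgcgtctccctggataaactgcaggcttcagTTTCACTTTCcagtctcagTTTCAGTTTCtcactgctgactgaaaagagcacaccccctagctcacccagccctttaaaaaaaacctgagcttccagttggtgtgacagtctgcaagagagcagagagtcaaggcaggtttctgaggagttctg
Oas3: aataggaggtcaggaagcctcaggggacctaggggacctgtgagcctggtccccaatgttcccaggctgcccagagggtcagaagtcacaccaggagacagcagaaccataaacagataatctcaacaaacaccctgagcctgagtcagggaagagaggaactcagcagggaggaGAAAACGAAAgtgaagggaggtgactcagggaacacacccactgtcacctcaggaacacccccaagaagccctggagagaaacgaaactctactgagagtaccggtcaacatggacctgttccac

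Among the transcription factors, Irf1 and Irf7 were lower and Irf9 and Stat2 did not pass the test. IRF1 is a factor induced by interferon gamma that activates GTPase and antigen presentation genes. Irf1 (chromosome 11, 53770014 to 53778374) had 77.1, 132 and 164 CPM as lowest, median and highest value in deleted libraries, against 105, 266 and 527 CPM in control libraries. All deleted libraries lay below the control median, and the lowest control fell inside their range. The log2 fold change was −1.09 ± 0.30 (SE, adjusted p = 0.0207, edgeR), but the adjusted p went up to 0.0583 when deleted replicate 3, 5 or 7 or control replicate 5 was left out. IRF7 drives the amplification of interferon alpha genes. Irf7 (chromosome 7, 141263183 to 141266499) had 35.4, 45.2 and 53.7 CPM in deleted libraries, against 32.9, 85.0 and 142 CPM in control libraries. Control replicate 2 was the lowest of all 13 libraries, and the other controls lay above every deleted one, at 65.9 CPM or more. Its log2 fold change was −1.11 ± 0.27 (adjusted p = 0.0114, edgeR). Irf9, which encodes a subunit of ISGF3, averaged 117 ± 24.2 CPM in deleted libraries and 174 ± 76.6 CPM in controls (SD, n = 6 and 7; log2 fold change −0.57, adjusted p = 0.192, edgeR). Stat2 averaged 77.0 ± 22.9 and 94.2 ± 22.9 CPM in deleted and control libraries (log2 fold change −0.29, adjusted p = 0.422, edgeR). The span of Stat2 overlaps that of Apof, and strand was not stated for the counting, so its count is uncertain.

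The interferon-inducible GTPases were the group in which all members passed the test. Igtp, Irgm1 and Ifi47 encode immunity-related GTPases, which in mice act at the vacuoles of intracellular pathogens, and Gbp2 and Gbp7 encode guanylate-binding proteins with a related role. All 5 were lower, with a median log2 fold change of −1.22, and summed to 456 ± 58.7 CPM in deleted libraries and 1012 ± 455 CPM in controls (SD, n = 6 and 7). The sum was 517, 460, 411, 493, 493 and 362 CPM in deleted replicates 1, 2, 3, 4, 5 and 7, and 578, 453, 921, 1491, 1715, 1007 and 921 CPM in control replicates 1 to 7. Control replicate 2 therefore lay among the deleted libraries, and control replicates 4 and 5 were the highest. Igtp (chromosome 11, 58199556 to 58207592) had 84.8, 104 and 131 CPM as lowest, median and highest value in deleted libraries, against 91.4, 282 and 457 CPM in control libraries. Only control replicate 2 fell within the deleted range. Its log2 fold change was −1.38 ± 0.30 (adjusted p = 0.00684, edgeR).

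Irgm1 (chromosome 11, 48865245 to 48871420) had 42.0, 57.4 and 73.8 CPM in deleted libraries, against 53.1, 116 and 269 CPM in control libraries (log2 fold change −1.30 ± 0.30, adjusted p = 0.00833, edgeR). Ifi47 (chromosome 11, 49076587 to 49096987) had 74.1, 93.8 and 155 CPM in deleted libraries, against 80.9, 206 and 453 CPM in control libraries (log2 fold change −1.22 ± 0.31, adjusted p = 0.0162, edgeR). Both ranges overlapped, again at control replicate 2 and for Ifi47 also at control replicate 1. Gbp2 and Gbp7 lie in 1 gene cluster on chromosome 3, between 142530336 and 142638008. Gbp2 had 49.4, 58.4 and 65.7 CPM in deleted libraries, against 77.0, 85.7 and 154 CPM in control libraries, and is the GTPase gene whose groups did not overlap (log2 fold change −0.88 ± 0.21, adjusted p = 0.0118, edgeR). Gbp7 had 93.6, 129 and 182 CPM in deleted libraries, against 122, 257 and 383 CPM in control libraries (log2 fold change −0.91 ± 0.27, adjusted p = 0.0315, edgeR). Its call was lost on leaving out any 1 of 9 libraries (deleted replicates 2, 3, 4, 5 and 7 and control replicates 4 to 7), with an adjusted p of up to 0.0838.

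The IFIT genes and viperin, textbook responders to type I interferon, gave no call. IFIT proteins bind foreign RNA, and viperin, encoded by Rsad2, hinders the replication of many viruses. The 3 Ifit genes lie between 34550550 and 34650009 on chromosome 19. Of the 4 genes, 0 passed the edgeR test (1 lower at an unadjusted p under 0.05, and 0 called by DESeq2 or limma-voom), and their median log2 fold change was −0.58. Ifit3 came nearest, with 9.18, 24.6 and 34.4 CPM in deleted libraries, against 20.9, 33.4 and 83.1 CPM in control libraries (log2 fold change −0.83 ± 0.30, adjusted p = 0.0809, edgeR), and passed on leaving out control replicate 2 (adjusted p = 0.0471). Ifit1 had 27.6, 35.4 and 53.6 CPM in deleted libraries, against 22.4, 53.4 and 103 CPM in control libraries (log2 fold change −0.54, adjusted p = 0.215, edgeR). Its span overlaps that of Ifit1bl1, a related gene, so reads could be split between them. Ifit2 had 14.2, 27.1 and 33.5 CPM in deleted libraries, against 8.81, 42.5 and 72.5 CPM in control libraries (log2 fold change −0.63, adjusted p = 0.264, edgeR). Control replicates 1 and 2 were below all deleted libraries for Ifit2 and the other 5 controls above all. Rsad2 averaged 38.6 ± 9.64 CPM in deleted libraries and 46.6 ± 10.5 CPM in controls (SD, n = 6 and 7; log2 fold change −0.27, adjusted p = 0.432, edgeR), and control replicate 4, second to control replicate 5 in the summed level, was the lowest control at 31.8 CPM.

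The oligoadenylate synthetase genes, which lie on chromosome 5, were split. OAS enzymes make oligoadenylates that activate RNase L. Oas1a had 13.5, 20.2 and 23.7 CPM in deleted libraries, against 21.4, 37.5 and 63.4 CPM in control libraries. It was lower (log2 fold change −0.95 ± 0.26, adjusted p = 0.0199, edgeR), and missed the threshold without deleted replicate 5 or control replicate 5 (up to 0.0563). Oasl1, whose product limits Irf7 translation in mice, had 5.46, 7.68 and 8.92 CPM in deleted libraries, against 9.11, 12.9 and 18.8 CPM in control libraries. Its groups did not overlap, yet the test gave an adjusted p of 0.0895 (edgeR, log2 fold change −0.77 ± 0.29). Oas2, Oas3 and Oasl2 had log2 fold changes of 0.35, −0.05 and −0.04, and the last pair change sign under other scalings. Their levels were 14.6 to 28.1, 9.65 to 41.1 and 23.1 to 35.2 CPM in deleted libraries and 11.1 to 26.7, 19.1 to 39.5 and 21.8 to 52.1 CPM in control libraries.

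In the ISG15 system and among other antiviral effectors, Isg20, Bst2 and Isg15 were lower. ISG20 is an RNA exonuclease. Isg20 (chromosome 7, 78913396 to 78920396) had 32.1, 26.2, 23.1, 22.0, 29.5 and 14.0 CPM in deleted replicates 1, 2, 3, 4, 5 and 7, and 57.3, 46.2, 83.6, 83.0, 129, 61.4 and 67.8 CPM in control replicates 1 to 7. The highest deleted library stayed below the lowest control, which was control replicate 2 once more. Its log2 fold change was −1.62 ± 0.24 (adjusted p = 0.000295, edgeR). Bst2, which encodes tetherin, a membrane protein that holds budding viruses at the cell, had 15.7, 30.8 and 40.4 CPM in deleted libraries, against 39.5, 61.0 and 110 CPM in control libraries (log2 fold change −1.11 ± 0.27, adjusted p = 0.0126, edgeR). Only deleted replicate 3 reached into the control range. Isg15, a ubiquitin-like modifier, had 7.97, 10.6 and 15.8 CPM in deleted libraries, against 8.81, 26.6 and 31.2 CPM in control libraries. Control replicates 1 and 2 lay within the deleted range and the other 5 above it. Its log2 fold change was −0.98 ± 0.31 (adjusted p = 0.0437, edgeR), and the call was lost on leaving out any 1 of 10 libraries, all but control replicates 1, 2 and 3 (up to 0.104). Usp18, which removes ISG15 from proteins and restrains the type I receptor, averaged 55.3 ± 11.0 CPM in deleted libraries and 87.0 ± 27.2 CPM in controls (SD, n = 6 and 7; log2 fold change −0.65, adjusted p = 0.0561, edgeR), and passed without control replicate 2 or 7. Mx1, a dynamin-like GTPase gene that RefSeq lists as a transcribed pseudogene in this build, averaged 10.1 ± 4.77 and 15.1 ± 4.16 CPM in deleted and control libraries (log2 fold change −0.58, adjusted p = 0.284, edgeR).

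Of the cytosolic nucleic acid sensors, Zbp1 was lower. ZBP1 binds Z-form nucleic acids and can start cell death. It had 25.4, 57.7 and 80.1 CPM in deleted libraries, against 46.7, 91.1 and 178 CPM in control libraries (log2 fold change −0.92 ± 0.29, adjusted p = 0.0461, edgeR). That call was lost on leaving out any 1 of 10 libraries (deleted replicates 2, 3, 4, 5 and 7 and control replicates 3 to 7), with an adjusted p of up to 0.129. Of the RNA sensors, Ddx58, which encodes RIG-I, averaged 93.4 ± 16.3 CPM in deleted libraries and 115 ± 24.8 CPM in controls (log2 fold change −0.31, adjusted p = 0.353, edgeR). Ifih1, which encodes MDA5, averaged 64.4 ± 15.2 and 59.9 ± 17.3 CPM in deleted and control libraries (log2 fold change 0.10, adjusted p = 0.801, edgeR).

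Of the other 7 genes, Ly6a, Rtp4 and Xaf1 were lower. Ly6a encodes Sca-1, a surface protein of activated mouse T cells that interferons induce. Ly6a (chromosome 15, 74994877 to 74998031) had 112, 75.8, 52.2, 66.7, 66.1 and 22.6 CPM in deleted replicates 1, 2, 3, 4, 5 and 7, and 181, 89.97, 211, 349, 427, 210 and 165 CPM in control replicates 1 to 7. Deleted replicate 1 and control replicate 2 were the pair that crossed. This was the gene with the most negative log2 fold change of the 33, −1.82 ± 0.34 (adjusted p = 0.00255, edgeR). Rtp4, a chaperone of receptors on their way to the cell surface, had 29.8, 35.6 and 46.2 CPM in deleted libraries, against 39.8, 84.8 and 169 CPM in control libraries (log2 fold change −1.40 ± 0.28, adjusted p = 0.00392, edgeR). Its span overlaps that of Masp1, so its count is uncertain. Xaf1, which encodes an antagonist of the apoptosis inhibitor XIAP, had 10.6, 31.6 and 39.6 CPM in deleted libraries, against 30.9, 61.6 and 128 CPM in control libraries (log2 fold change −1.35 ± 0.32, adjusted p = 0.0108, edgeR). Ifi35, Trim30a and Parp14 had log2 fold changes of −0.86, −0.42 and −0.35 with adjusted p of 0.061, 0.346 and 0.27 (edgeR), and Ifi35 passed without control replicate 1 or 2. Ifi44 had the most positive log2 fold change, 0.45 ± 0.23 (adjusted p = 0.219, edgeR), with 24.6, 35.0 and 54.0 CPM in deleted libraries, against 13.4, 26.1 and 35.0 CPM in control libraries.

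**Figure D4:**
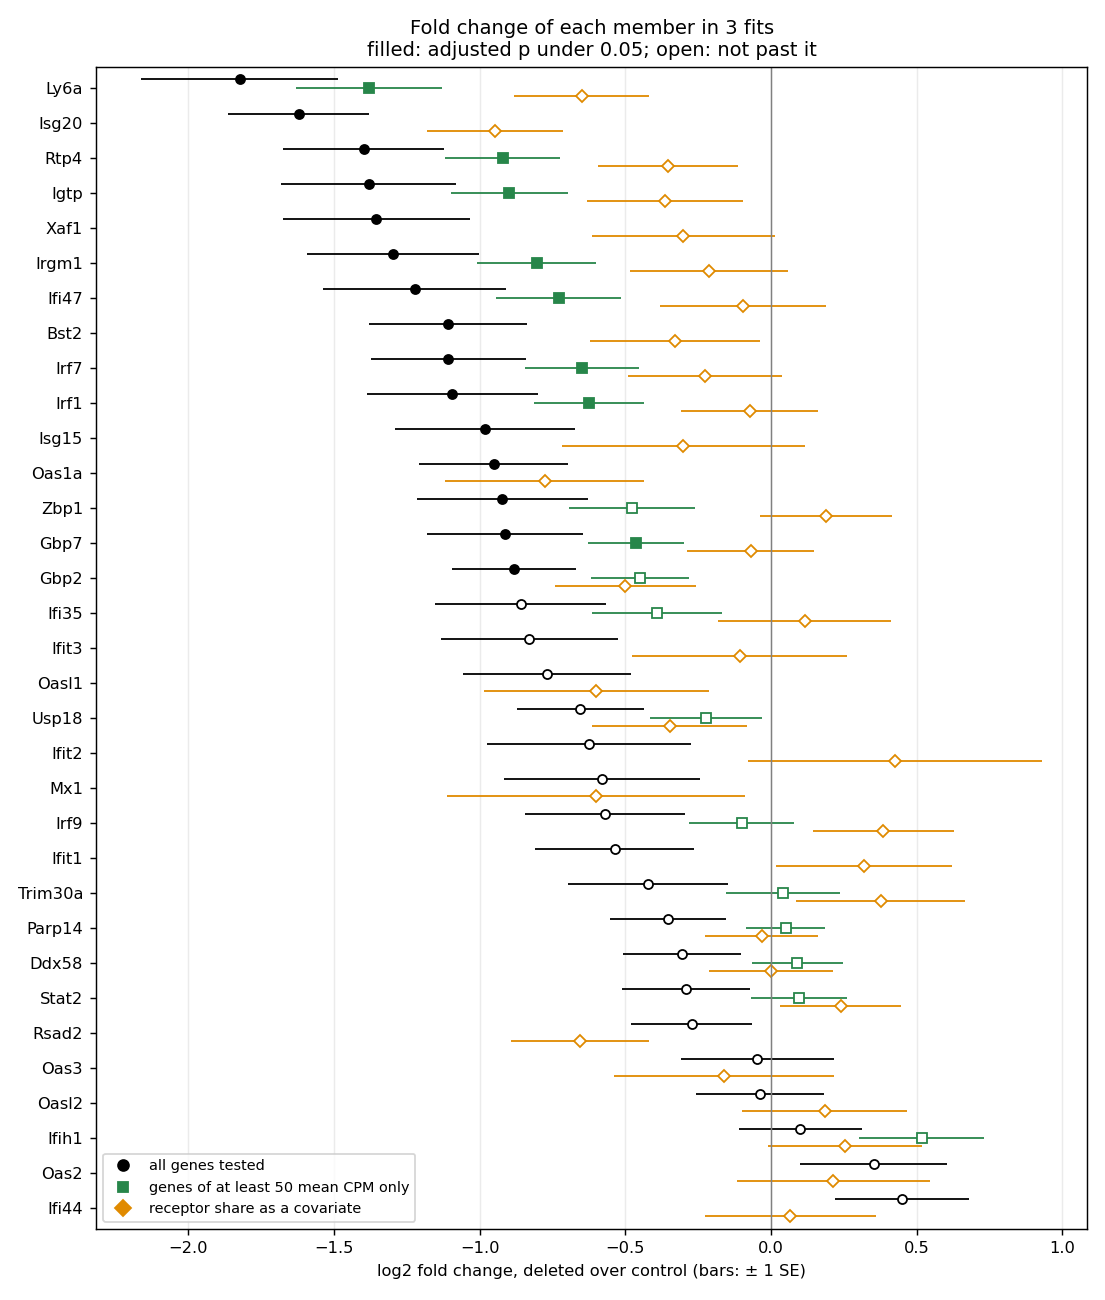
Log2 fold change (deleted over control) of each interferon-stimulated gene with its standard error, ordered by size, from the fit over all genes tested, the fit on genes of at least 50 mean CPM and the fit with receptor share as a covariate, with filled symbols for an adjusted p under 0.05. Values run from −1.82 to 0.45 with 15 filled symbols in the first fit and 8 in the second, and in the third 21 of the 33 values lie below 0 with none filled.

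Upstream of these genes, 61 genes of interferon signalling and nucleic acid sensing were tested, of which 10 were lower and 1 higher, beside 8.52% lower and 1.66% higher over all genes tested. With the receptor share as a covariate, and among the 5 deleted and 4 control libraries of similar receptor share (0.7 to 1.4%), edgeR called 0 of them in either direction (2 and 9 lower and 7 and 3 higher at an unadjusted p under 0.05). The number lower was 4 without deleted replicate 5, 6 without deleted replicate 7, 16 without control replicate 1 and 20 without control replicate 2. Among 9 receptor and kinase genes, edgeR called 1 lower, a share near that over all genes, and 0 higher. At an unadjusted p under 0.05, 5 were lower and 0 higher (edgeR). DESeq2 called 3 lower, limma-voom 2 lower, and both called 0 higher. The median log2 fold change of the 9 genes was −0.50. The gene called by edgeR was Ifngr1, a chain of the interferon gamma receptor. It was at 91.1 ± 29.6 CPM in deleted libraries and 193 ± 93.2 CPM in controls (SD, n = 6 and 7; log2 fold change −1.09 ± 0.32, adjusted p = 0.0333, edgeR). Of 21 interferon genes, 12 could be tested and 0 were called (edgeR; 1 higher at an unadjusted p under 0.05, 0 called by DESeq2 and 1 lower by limma-voom). Ifnk had the smallest p of these, at 6.04 ± 3.13 CPM in deleted libraries and 2.64 ± 1.70 CPM in controls (log2 fold change 1.18 ± 0.52, adjusted p = 0.145, edgeR).

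Of 23 nucleic acid sensing genes, 6 were lower and 1 higher, beside 8.52% lower and 1.66% higher over all genes tested. The smallest p-values among the lower ones belonged to Irf8, a factor of interferon gene induction, to Myd88, the adaptor of endosomal Toll-like receptors, and to Sting1, the adaptor of cytosolic DNA sensing. Irf8 averaged 21.1 ± 2.83 CPM in deleted libraries and 46.3 ± 11.8 CPM in controls (SD, n = 6 and 7; log2 fold change −1.13 ± 0.21, adjusted p = 0.00286, edgeR). Myd88 and Sting1 had log2 fold changes of −1.16 and −1.25 (adjusted p = 0.00721 and 0.00805, edgeR). The gene called higher, Ifi204, an interferon-inducible DNA sensor gene named after its values were seen, averaged 34.4 ± 9.19 CPM in deleted libraries and 16.5 ± 5.66 CPM in controls (log2 fold change 1.06 ± 0.24, adjusted p = 0.0093, edgeR). It belongs to a family of near-identical copies, so its reads may be shared with them. Of 17 negative regulators, 3 were lower and 0 higher (edgeR; 7 lower and 0 higher at an unadjusted p under 0.05). DESeq2 called 3 lower, limma-voom 6 lower, and both called 0 higher. Over all genes tested the share lower was 8.52%, with 18.6% from 50 to 100 CPM and 27.9% from 100 to 200 CPM. The list was not tested against genes of similar level. The genes called lower by edgeR were Nlrc5, Cish and Ptpn1. Their log2 fold changes were −0.96, −1.11 and −0.93 (adjusted p = 0.0137, 0.0175 and 0.0199, edgeR). NLRC5 is best known as an activator of MHC class I genes, CISH as an inhibitor of cytokine receptor signalling through STAT5, and PTPN1 as a phosphatase of JAK kinases.

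A further 99 interferon-stimulated genes outside the 33 gave 25 lower and 2 higher, with a median log2 fold change of −0.56, beside 8.52% lower, 1.66% higher and a median of 0.06 over all genes tested. With the receptor share as a covariate 2 were lower and 0 higher, and the counts were the same among the libraries of similar receptor share (edgeR; 8 and 1 higher at an unadjusted p under 0.05). The number lower was 15 without deleted replicate 7, 13 without control replicate 4, 15 without control replicate 5 and 42 without control replicate 2. Those of smallest p were Ube2l6, the conjugating enzyme for ISG15, and Ifi27 and Ifi27l2a, small mitochondrial or nuclear envelope proteins. Ube2l6 averaged 8.65 ± 2.71 CPM in deleted libraries and 34.1 ± 12.2 CPM in controls (SD, n = 6 and 7; log2 fold change −1.98 ± 0.28, adjusted p = 0.000137, edgeR). Ifi27 averaged 53.1 ± 13.7 and 145 ± 53.9 CPM in deleted and control libraries (log2 fold change −1.45 ± 0.25, adjusted p = 0.00143, edgeR). Ifi27l2a averaged 313 ± 122 CPM in deleted libraries and 1102 ± 531 CPM in controls (log2 fold change −1.81 ± 0.36, adjusted p = 0.00355, edgeR), and has related copies beside it in the genome. The 2 genes called higher, Cxcl11, a chemokine gene, and Ifi44l, a relative of Ifi44, are named after their values were seen. They were at 11.98 ± 2.33 and 9.06 ± 3.02 CPM in deleted libraries and at 5.39 ± 2.73 and 3.23 ± 1.79 CPM in control libraries (adjusted p = 0.0421 and 0.0337, edgeR).

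The targeted genes and the marker genes of the sort frame these values. Stk3 averaged 33.6 ± 6.32 CPM in deleted libraries and 33.9 ± 7.51 CPM in controls (log2 fold change −0.01, adjusted p = 0.981, edgeR), and Stk4 averaged 171 ± 120 CPM in deleted libraries and 213 ± 55.9 CPM in controls (log2 fold change −0.31, adjusted p = 0.576, edgeR). The library labelled deleted replicate 1 had the highest Stk4 level of all 13, 394 CPM, and without it 14 of the 33 interferon-stimulated genes were lower. A count over the whole gene cannot tell whether particular exons are lost, so these values do not check the deletion. Foxp3 averaged 44.0 ± 16.2 CPM in deleted libraries and 54.1 ± 12.1 CPM in controls (log2 fold change −0.30, adjusted p = 0.463, edgeR). The 8 Treg and T cell markers summed to 976 to 1930 CPM in deleted libraries and 1380 to 5720 CPM in controls, and 6 of the 8, all but Foxp3 and Il2ra, were lower. The median log2 fold change of these 8 markers was −1.13, beside −0.83 for the 33 interferon-stimulated genes. The 7 B cell markers summed to 148 to 224 CPM in deleted libraries and 373 to 1100 CPM in controls, with Ighm and Cd79b lower and Ms4a1 higher. Plasmacytoid dendritic cells, the main producers of interferon alpha, had markers summing to 258 to 308 CPM in deleted libraries and 293 to 376 CPM in controls. Of 7 tested 2 were lower, Pacsin1 and Bst2, the second being one of the 33 genes. Conventional dendritic cell markers summed to 145 to 199 CPM in deleted libraries and 97.4 to 144 CPM in controls, with 2 of 6 higher. Monocyte or macrophage markers summed to 79.3 to 115 and 82.0 to 134 CPM in deleted and control libraries. Markers of CD8 T cells, NK cells, neutrophils and erythroid cells summed to 25.8 to 54.9, 56.9 to 105, 21.7 to 41.6 and 21.9 to 31.4 CPM in deleted libraries and to 40.5 to 60.0, 41.1 to 89.4, 12.3 to 31.6 and 14.1 to 36.3 CPM in controls. No marker of any list was at 0 in all libraries, and the part of other cells and of depth in the differences was not tested.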

How the data were processed

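For 13 libraries the authors deposited tables of raw read counts for each gene. The submitters' processing notes name GRCm38, mm10, featureCounts 2.0.1, DESeq2 1.26.0 and edgeR 3.28, without their roles. No aligner, annotation or strandedness was given in the sources used here. In the authors' deposited comparison table are log2 fold changes and p-values or false discovery rates of deleted over control, per the file headers. The deposited tables also give a mean signal per group, which was not used.

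With edgeR 4.0.16 in R 4.3.3, low-count genes were removed (filterByExpr), libraries were scaled (TMM, the trimmed mean of M values) and genotype was fitted as the only term over all 13 libraries. The test was the quasi-likelihood F test with Benjamini-Hochberg adjustment over all genes tested and 0.05 as threshold. The fit was checked on counts simulated at the same depth. It recovered 40 of 100 genes changed 2-fold and 96 of 100 changed 4-fold, with 3 false calls among 23595 genes. Those false calls were not counted under a receptor share that differs between groups, so they give no false-call rate for these data. Recovery was not split by expression level, so it is not known for the interferon-stimulated genes alone. CPM values are counts per 1e6 counts after TMM scaling, except in the level bands, the 50 CPM limit and the 10 CPM filter, which used unscaled CPM. They are not divided by gene length and are compared between groups, not between genes. Standard errors were taken as the fold change over the root of F. Coordinates are those of RefSeq genes on GRCm38.

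The 33 genes, the gene lists, the receptor share and the 50 CPM limit were chosen with earlier results of these data known. Named were the 33 genes, Foxp3, Stk3 and Stk4, and of each list up to 3 genes past the threshold with the smallest p, or the one with the smallest p. One gene of the pathway is not reported here and was left out of the lists. Alternatives were DESeq2 size factors, upper quartile scaling, scaling by the genes of at least 50 mean CPM or a fit on them alone, DESeq2 1.42.0, limma-voom with sample weights (limma 3.58.1), no filter, a filter of 10 CPM in 6 libraries, receptor share as a covariate, libraries with a share of 0.7 to 1.4%, the replicate number as a block, a log2 fold change of at least 1 and each library left out in turn.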

Additional observations from a re-analysis of the deposited data

Results flagged for a closer look

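Each gene was examined for a library far from the others of its group, by the gap to the nearest library over the range of the group. Of 66 sets of values, 3 stood out, and chance alone gives about 3.3. Oasl1 was at 18.8 CPM in control replicate 6, against 9.11 to 12.9 CPM in the other control libraries (gap over range 0.603). Oasl2 was at 52.1 CPM in control replicate 4, against 21.8 to 33.6 CPM in the others (0.611). Usp18 was at 140 CPM in control replicate 5, against 57.8 to 90.2 CPM in the others (0.606). The 3 are in different control libraries.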

How the results depend on the processing

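Over the settings other than leaving out a library, values of single interferon-stimulated genes kept their direction and side of the threshold in 262 cases, lost the call in 50, gained it in 4 and changed sign in 31. None was called higher under any setting. The number lower, 15, was 14 with DESeq2 size factors, 11 with upper quartile scaling, 18 with DESeq2, 16 with limma-voom, 9 with scaling by abundant genes, 8 of 18 with abundant genes alone, 0 with the receptor covariate and 1 (Isg20) among 5 deleted and 4 control libraries of similar receptor share. The covariate correlated with genotype (0.692), and the fit at similar share held fewer libraries. How far receptor share and how far genotype go with their low counts of calls was not tested. The median log2 fold change of the 33 genes at similar share was −0.42. Leaving out 1 library gave 10 (without deleted or control replicate 5) to 19 (without control replicate 2), and 10 genes were called each time. Upper quartile scaling moved the median of all genes by 0.18 and scaling by abundant genes by 0.36 on the log2 scale. The replicate numbers are not stated to pair libraries. Correlations of deviations over 6 pairs ran from −0.34 to 0.43, 1 was above 0.1, and 0 matched their own number best. So few pairs cannot exclude a pairing by replicate number. The fit with that number as a block, without control replicate 6, called 7 of the 33 lower, 3 signalling genes lower and 0 higher, 8 further interferon-stimulated genes lower and 0 higher, and 736 genes lower and 121 higher in all.

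Among signalling genes, scaling by abundant genes called 2 higher and 5 lower, abundant genes alone 5 lower, limma-voom 19 lower, a log2 fold change of at least 1 left 6 lower, and the covariate and the libraries of similar share called 0 in either direction. Leave-one-out counts were 4 (without deleted replicate 5) to 20 (without control replicate 2) lower and 1 higher. Among further interferon-stimulated genes, scaling by abundant genes called 1 higher and 11 lower, abundant genes alone 0 and 13, limma-voom 38 lower, the strict filter 1 higher, and the covariate and similar share 0 higher and 2 lower each. Leaving out a library gave 0 to 2 higher and 13 (without control replicate 4) to 42 (without control replicate 2) lower. Genes called higher and lower in all were 761 and 1208 with upper quartile scaling, 1212 and 692 with scaling by abundant genes, 54 and 56 with the covariate, 38 and 101 at similar share, and 233 and 1144 at a log2 fold change of at least 1. DESeq2 called 688 and limma-voom 1174 higher, and abundant genes alone gave 717 lower. Leave-one-out ranges were 167 to 860 higher and 1034 to 3245 lower.

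Signs changed with the covariate for Ifit1 (0.32), Ifit2 (0.43), Irf9 (0.39), Stat2 (0.24), Oasl2 (0.19), Ifi35 (0.12), Ddx58 (0.00053), Zbp1 (0.19) and Trim30a (0.38). At similar share they changed for Ifit2 (0.052), Irf9 (0.066), Stat2 (0.0054), Oas3 (0.11) and Oasl2 (0.16). Scaling by abundant genes turned Oas3 (0.34), Oasl2 (0.34), Stat2 (0.095), Rsad2 (0.044), Ddx58 (0.089), Trim30a (0.040) and Parp14 (0.049), and the fit on abundant genes alone turned Stat2 (0.096), Ddx58 (0.090), Trim30a (0.041) and Parp14 (0.050). Oas3 and Oasl2 also turned with upper quartile scaling (0.15 each), limma-voom (0.097 and 0.044) and the strict filter (0.042 and 0.047). Leave-one-out values ran from −0.22 to 0.12 for Oas3, −0.10 to 0.14 for Oasl2 and −0.026 to 0.24 for Ifih1. The cause of these changes was not tested. The part of depth in the values of the low members was not tested.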
